A study of Rattus norvegicus with 12 samples.

Results

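The comparison of AT1 with FCA asked which transcripts of fibroblast-like synoviocytes (FLS) differed after 12 h in taurochenodeoxycholic acid (TCDCA, a taurine-conjugated bile acid) at 1 µM. It used 6 of the 12 libraries of the study, 3 from AT1 (TCDCA at 1 µM) and 3 from FCA (DMEM alone, no bile acid). The table holds 22442 gene records, and 11611 of them averaged 1 FPKM or more across the study and were compared on log2(FPKM + 1). The 522 records whose values jumped between 2 separate levels inside a group were then set apart, which left 11089 records for the description of gene groups. A gene record is a locus assembled over all libraries, so that a gene name can belong to more than 1 record, and FPKM is the number of fragments per kilobase of transcript, scaled to a fixed number of mapped fragments.

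All FLS came from male Sprague-Dawley rats with adjuvant arthritis, raised by Freund's complete adjuvant in a hind paw, and were grown out of pieces of synovium and used at the third passage. The FCA cells were therefore arthritic cells without drug, and no cells of healthy rats were among the libraries. The other 2 groups, AT10 and AT01, received TCDCA at 10 and 0.1 µM and were compared with the same FCA libraries, so that the dose comparisons below are not independent of each other. The cells were a passaged culture outside the joint. No label says whether the 3 libraries of a group came from separate rats or cultures, so the p-values measure the spread between these libraries, which may be technical.

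The 6 libraries resembled each other closely. Their total FPKM lay between 292366 and 305195, between 11471 and 11613 records reached 1 FPKM, and the 10 most abundant records held 8.66 to 9.21% of the sum. Pearson's correlation of log2(FPKM + 1) across records lay between 0.9434 and 0.9508 for the 6 pairs of libraries within a group and between 0.9352 and 0.9513 for the 9 pairs between FCA and AT1. Markers of mesenchymal cells were abundant in all 6 libraries. Vim, the intermediate filament vimentin, lay between 2662.56 and 3083.65 FPKM, Col1a1 between 816.55 and 1071.96 and the PDGF receptor Pdgfrb between 122.38 and 169 FPKM. The T cell gene Cd3e was at 0, the endothelial cadherin Cdh5 at most 0.01 and the B cell gene Cd79a at most 0.08 FPKM, while the myeloid gene Cd68 reached 2.79 FPKM. These are bulk libraries, in which fewer cells of a type and less RNA per cell cannot be told apart.

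Bile acids act on cells through the membrane receptor Gpbar1 (TGR5), which raises cAMP and activates protein kinase A and CREB, through nuclear receptors, and through kinase cascades. Immediate early genes such as Egr1, Fos and Nr4a1 are transcribed within minutes of a stimulus, without new protein synthesis, by serum response factor, its ternary complex partners and CREB, and their short-lived mRNAs report the current activity of these pathways. FLS line the joint, secrete collagen, hyaluronan and proteases, and in arthritis produce chemokines and IL-6, attach to cartilage through integrins and proliferate.

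Few single genes passed a correction for multiple tests. A record is said below to have risen or fallen where limma gave an unadjusted p under 0.05, and every other value is a description. By that rule, 628 of the 11089 records (5.66%) rose in AT1 and 614 (5.54%) fell, and a count of members is read against these shares. With 1 library left out at a time, the shares over all records ran from 3.23 to 7.02% higher and from 3.63 to 5.46% lower. Values of the 3 AT1 libraries lay wholly above those of FCA in 1125 records (10.1%) and wholly below in 1134 (10.2%). At a Benjamini-Hochberg adjusted p under 0.05 limma called 7 records (0.0631%), and the study's criterion of p under 0.05 with a log2 fold change beyond 1 or -1 called 29 higher (0.262%) and 14 lower (0.126%). With the switching records, 72 of 11611 passed that criterion (0.62%), 43 higher (0.37%) and 29 lower (0.25%), and 11 passed the adjusted p (0.0947%), while 646 rose (5.56%), 632 fell (5.44%), and 9.87% lay wholly above and 10% wholly below. The median log2 fold change over the 11089 records was 0.02. A two-sided exact permutation test of 3 libraries against 3 cannot go below p = 0.1, which every gene without overlap reached.

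Of 113 lists of genes by function, 101 had at least 10 members among these records. Their median log2 fold changes ran from -0.33 to 0.12, with 35 below 0 and 66 above. More than 20% of the members fell in 3 lists, the immediate early genes, the collagen chains and the genes of the actomyosin apparatus. More than 20% rose in 2 lists, the genes of mitosis and the G2/M transition, and the subunits of chaperonin and prefoldin, where 3 of 14 rose, Pfdn5 (0.25 ± 0.07), Cct8 (0.19 ± 0.06) and Cct4 (0.15 ± 0.05). Each of the 3 calls was lost without AT1 replicate 2, that of Cct4 also without AT1 replicate 1 or FCA replicate 1, and that of Cct8 also without AT1 replicate 3, FCA replicate 1 or FCA replicate 2. Of 41 lists recounted with 1 library left out at a time, 39 had a number of higher or lower members that moved by over 1.5 times in at least 1 of the fits, so the counts of a few genes below are given with their ranges.

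**Figure D1:**
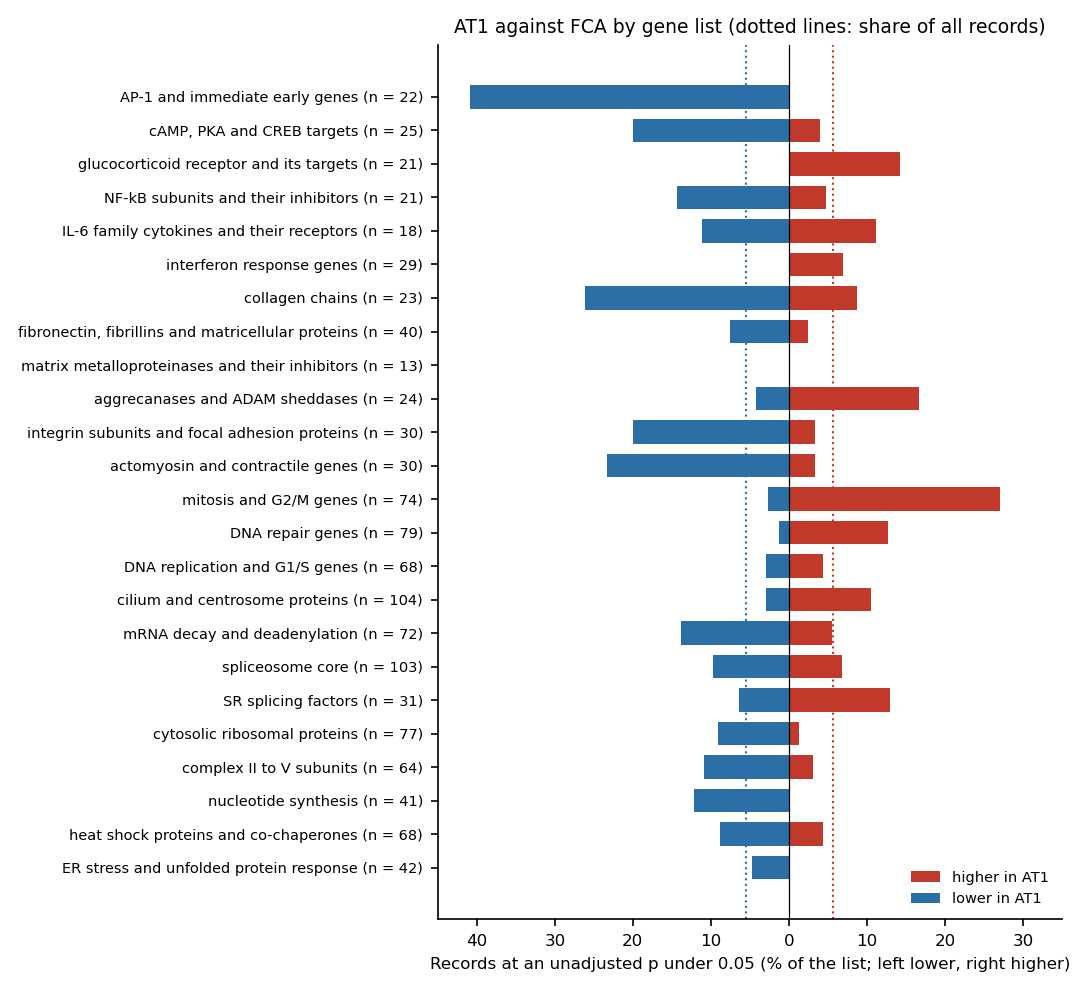
Share of the members of 24 gene lists that rose (right) or fell (left) in AT1 against FCA at an unadjusted limma p under 0.05, in percent of the members that did not switch. The dotted lines stand at the shares over all 11089 records, 5.66% higher and 5.54% lower. The immediate early genes reach 40.9% lower with 0% higher, and the mitosis genes 27% higher.

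The immediate early genes had the lowest median of the 101 lists. Of 30 listed records 25 were tested and 3 switched (Zfp36l1, Ier5 and Btg1), and of the 22 records left 9 fell in AT1 (40.9%) and 0 rose. In 12 of the 22 all AT1 values lay below all FCA values, and in 0 all lay above (10.2% and 10.1% over all records). The median log2 fold change of the 22 records was -0.33, against 0.02 for all records.

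Because the genes share known promoter elements, their start regions were read from the RefSeq promoter table (build GRCr8), which holds 300 bases a gene, 250 before the gene's start and 50 after it. Of the 21 genes 13 had an entry, 6 of them among those that fell. Shown are the 250 bases before the start of the 3 genes with the smallest p, 5′ to 3′ on the gene's strand, with the core of the cAMP response element (TGACG on either strand) and the CArG box, the site of serum response factor, in capitals. They are Egr1 at chr18:26736828-26737077 on the plus strand, Btg2 at chr13:48087691-48087940 on the minus strand, and Nr4a1 at chr7:134259888-134260137 on the plus strand.
Egr1: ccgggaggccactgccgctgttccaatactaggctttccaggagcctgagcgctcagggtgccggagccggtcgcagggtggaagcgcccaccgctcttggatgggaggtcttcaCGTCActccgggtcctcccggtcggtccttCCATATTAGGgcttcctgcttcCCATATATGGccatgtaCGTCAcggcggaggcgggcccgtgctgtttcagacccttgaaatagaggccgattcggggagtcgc
Btg2: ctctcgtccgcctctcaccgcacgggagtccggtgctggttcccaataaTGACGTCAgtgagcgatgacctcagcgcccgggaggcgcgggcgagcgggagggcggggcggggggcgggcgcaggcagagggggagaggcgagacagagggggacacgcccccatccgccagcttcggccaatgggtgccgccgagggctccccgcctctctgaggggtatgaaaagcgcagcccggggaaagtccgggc
Nr4a1: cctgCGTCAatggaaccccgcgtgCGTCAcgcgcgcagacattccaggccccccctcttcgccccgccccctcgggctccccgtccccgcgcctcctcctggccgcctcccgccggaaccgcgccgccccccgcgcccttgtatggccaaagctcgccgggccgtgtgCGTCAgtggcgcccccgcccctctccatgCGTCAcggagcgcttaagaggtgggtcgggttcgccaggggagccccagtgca
The Egr1 sequence held a core at 135 and another at 66 bases before the start (-135 and -66) and CArG boxes at -105 and -83. In Btg2 the capitals are 1 complete palindromic element, TGACGTCA, from -201 to -194. Nr4a1 held 4 cores, which begin at -246, -226, -82 and -53. Over the 300 bases and both strands, the core (which also lies inside the complete element) was present in 9 of the 13 immediate early promoters and in 7097 of 33469 promoters of the table (21.2%). The complete element was present in 4 of the 13 against 1.83% of the table, the CArG box in 5 against 1.64%, and the EGR site GCGTGGGCG in 2 against 0.544%. The palindrome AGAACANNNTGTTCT of the glucocorticoid response element was found in 0 of the 13 and in 5 of all promoters (0.0149%). Among the 6 genes that fell and had an entry, the core was present in 5, the complete element in 3 (Btg2, Ier2 and Maff) and the CArG box in 2 (Egr1 and Zfp36). Of the genes with an entry that did not fall, Egr2, Fosl1, Jund and Srf held the core and Jund the complete element. Egr2, Klf6 and Srf held the CArG box, so the matches were not confined to genes that fell. These are matches of letters and not measured sites.

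Egr1, a zinc finger transcription factor, was at 40.1, 43.2 and 41.89 FPKM in the FCA libraries and at 24.33, 25.49 and 22.42 in AT1. The groups lay well apart, and the log2 fold change of -0.77 ± 0.07 (SE) passed the correction (limma adjusted p = 0.0488, from 0.0328 to 0.351 over the alternatives). Btg2, an antiproliferative cofactor of mRNA deadenylation, was at 51.93, 53.15 and 56.58 FPKM in FCA and at 35.14, 33.39 and 29.4 in AT1. It fell by 0.71 ± 0.08 on the log2 scale (limma adjusted p = 0.111, from 0.0789 to 0.502). Nr4a1, an orphan nuclear receptor, was the most abundant of the 3, with 93.37, 96.93 and 98.87 FPKM in FCA and 68.66, 72.88 and 67.57 in AT1. Its groups did not overlap either, with a log2 fold change of -0.46 ± 0.05 (limma adjusted p = 0.113, from 0.0416 to 0.502).

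Both subunits of the classical AP-1 dimer were lower. Fos was at 8.74, 14.97 and 8.45 FPKM in FCA and at 4.54, 5.91 and 5.32 in AT1, a fall of 0.87 ± 0.23 on the log2 scale. Jun was at 19.92, 22.75 and 22.74 in FCA and at 15.27, 18.76 and 18.55 in AT1, with the highest AT1 value below the lowest FCA value. Its log2 fold change of -0.30 ± 0.10 lost the call without AT1 replicate 1, FCA replicate 2 or FCA replicate 3. Zfp36, the AU-rich element binding protein tristetraprolin that destabilises cytokine mRNAs, had 37.77, 41.99 and 34.41 FPKM in FCA and 27.97, 26.94 and 26.86 in AT1 (log2 fold change -0.46 ± 0.08). The AT1 values differed from each other far less than from FCA. Myc, the growth-promoting transcription factor, fell by 0.41 ± 0.09 from 22.61, 26.19 and 24.26 to 17.76, 19.86 and 16.84 FPKM. Ier2 fell by 0.35 ± 0.07 and Maff, a small MAF factor, by 0.22 ± 0.06. The other 13 records did not pass, with log2 fold changes from -0.67 for Egr2 to 0.11 for Klf10. Csrnp1, an immediate early nuclear protein outside the list, had 23.89, 23.41 and 23.59 FPKM in FCA and 17.39, 16.74 and 16.08 in AT1 (log2 fold change -0.47 ± 0.05, limma adjusted p = 0.111).

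The lower level was not ordered by dose. Egr1 was at 46.7, 46.98 and 41.54 FPKM in AT10 and at 22.32, 28.21 and 23.36 in AT01, so that the AT1 values lay below AT10 and among those of AT01. The difference of AT1 from AT10 was -0.88 ± 0.08 on the log2 scale (limma adjusted p = 0.0261), and that from AT01 was -0.03 ± 0.11, within its standard error. Btg2 averaged 55.9 FPKM in AT10 and 37.3 in AT01, and differed between AT1 and AT10 by -0.76 ± 0.08 (limma adjusted p = 0.0475). Nr4a1 averaged 95.9 FPKM in AT10 and 71.2 in AT01, and its difference from AT10 did not pass the correction (-0.45 ± 0.07, limma adjusted p = 0.16). In the direct comparison of AT1 with AT10, 9 of the 22 records were lower and 0 higher (over all records 2.74% lower and 3.72% higher), and in that with AT01, 0 were lower and 1 higher (1.66% and 1.63% over all records). The higher member was Cyr61, a matricellular signalling protein, at 192.69, 218.35 and 213.01 FPKM in AT01 and at 391.26, 421.18 and 375.36 in AT1 (0.93 ± 0.08, limma adjusted p = 0.0389). Its FCA values of 464.64, 255.17 and 457.74 FPKM lay on both sides of AT1, and the log2 fold change of 0.06 ± 0.25 over FCA did not pass. Against FCA, 0 of the 22 fell at 10 µM (median log2 fold change -0.03, 4.3% of all records lower) and 10 fell at 0.1 µM (median -0.30, 4.05% of all records lower). With 1 library left out at a time, between 8 and 10 of the 22 fell in AT1.

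**Figure D2:**
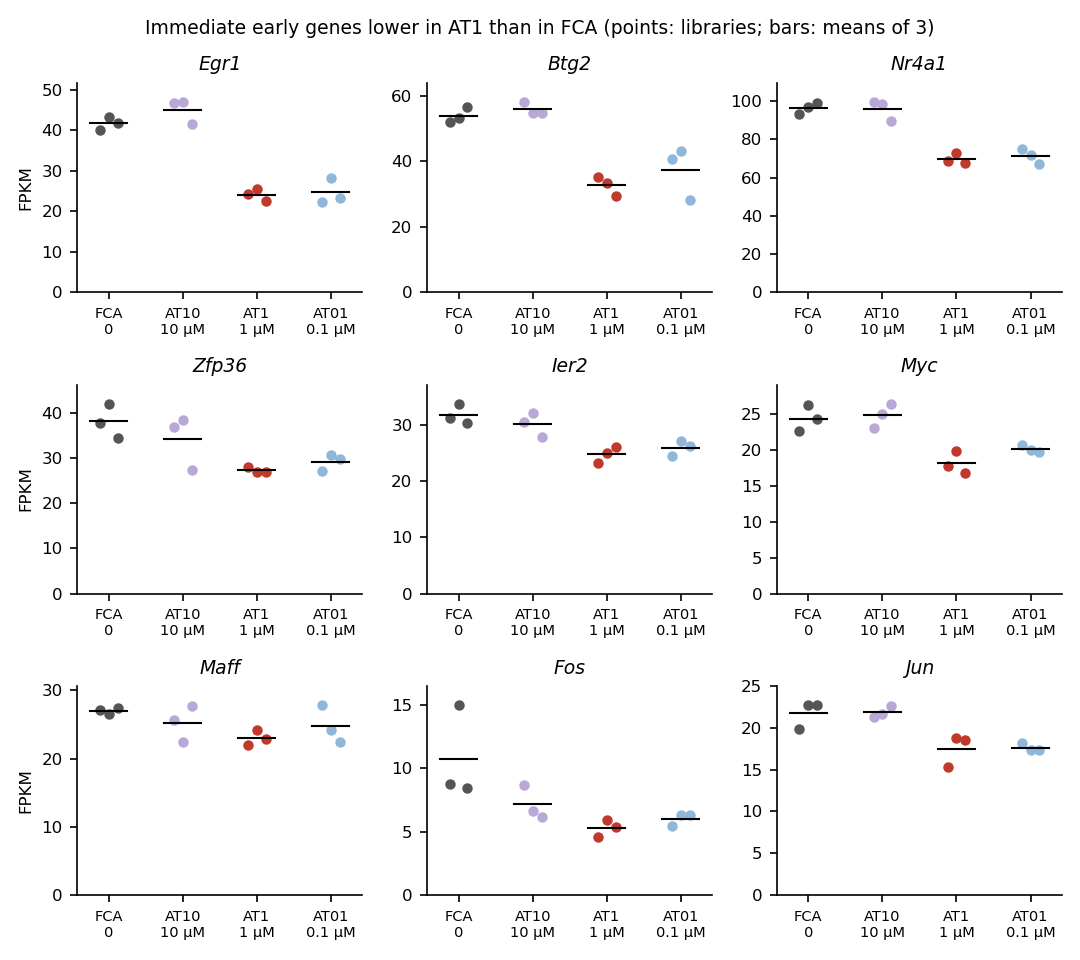
FPKM of 9 immediate early genes in each library (points) with the group mean (bars) for FCA and for TCDCA at 10, 1 and 0.1 µM, 3 libraries a group, each panel from 0. The FCA points lie above the AT1 points in all 9 panels, and AT01 resembles AT1 for Egr1 (22.32 to 28.21 FPKM) while AT10 resembles FCA (41.54 to 46.98 FPKM).

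Genes tied to the pathways of bile acid receptors gave counts that differed by list. Gpbar1 itself was at most 0.05 FPKM in the 6 libraries and was not tested, and of the 8 bile acid receptors and transporters tested 0 rose and 0 fell. Of 25 targets of cAMP, PKA and CREB 1 rose and 5 fell, for a median log2 fold change of -0.06. The share that fell was larger than the 5.54% of all records. Between 0 and 3 rose with 1 library left out, 3 without FCA replicate 3 and 0 without AT1 replicate 1. Of the 5 that fell, 3 (Btg2, Nr4a1 and Fos) are also in the immediate early list. Sik1 and Nr4a2 (-0.20 ± 0.08, lost in at least 1 fit without a library) are not in that list, which does not hold every immediate early gene. The salt-inducible kinase Sik1, a CREB-induced brake on the CREB coactivators, fell by 0.27 ± 0.07, from 6.6, 5.91 and 5.75 to 4.88, 4.9 and 4.79 FPKM. The member that rose was 1 of 2 records of Ppargc1a, the coactivator of mitochondrial biogenesis. This record, MSTRG.5840, was at 2.38, 2.5 and 2.74 FPKM in FCA and 3.98, 3.04 and 4.67 in AT1 (0.46 ± 0.14). Its call was lost without AT1 replicate 1, FCA replicate 1 or FCA replicate 2. The more abundant record, MSTRG.5839, had 4.07, 3.26 and 5.06 FPKM in FCA and 4.94, 5.97 and 5.29 in AT1. Its groups overlapped and its log2 fold change of 0.33 ± 0.15 did not pass. Among 27 adenylate cyclases, phosphodiesterases and PKA subunits 1 rose and 2 fell. The PKA catalytic subunit gene Prkacb rose by 0.36 ± 0.08, from 4.33, 4.14 and 4.38 to 6.35, 5.21 and 5.85 FPKM. The adenylate cyclase Adcy6 (-0.50 ± 0.17) and the stimulatory G protein subunit Gnas (-0.17 ± 0.06) fell, but each kept the call in only 1 of the 6 fits with a library left out. Among 14 feedback inhibitors of MAP kinase signalling, the receptor tyrosine kinase antagonist Spry2 fell (-0.20 ± 0.08, kept only without AT1 replicate 2) and 0 rose.

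For the glucocorticoid receptor and its targets, 3 of 21 members rose and 0 fell, for a median log2 fold change of -0.01. Without 1 library, between 1 and 4 rose, the lowest count without AT1 replicate 3 or FCA replicate 1. Nr3c1, the receptor, has 2 records. The record MSTRG.8116 was at 7.15, 5.39 and 7.74 FPKM in FCA and at 9.09, 10.35 and 10.16 in AT1, a rise of 0.50 ± 0.13. The other, MSTRG.8108, switched between levels, with 4.26, 15.09 and 3.17 in FCA and 6.26, 14.74 and 3.0 in AT1. Anxa1, the anti-inflammatory protein annexin A1, was at 428.24, 391.71 and 473.99 FPKM in FCA and 519.85, 502.48 and 526.83 in AT1 (0.26 ± 0.08, lost without AT1 replicate 1, AT1 replicate 3 or FCA replicate 1). The mTORC1 inhibitor Ddit4 rose by 0.35 ± 0.11 (lost without AT1 replicate 3, FCA replicate 1 or FCA replicate 3). The other members did not pass. Among them were Fkbp5 (-0.07 ± 0.07), Per1 (-0.11 ± 0.08), Sgk1 (-0.36 ± 0.29), Dusp1 (-0.86 ± 0.57), Tsc22d3 (0.23 ± 0.18) and Klf9 (0.07 ± 0.08).

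Few inflammatory genes passed the test. Il6 was at 81.56, 107.81 and 128.11 FPKM in FCA and at 193.76, 109.33 and 173.85 in AT1. The groups overlapped and the log2 fold change of 0.57 ± 0.27 did not pass, while Tnf stayed at or under 0.02 FPKM. Of 9 chemokines 1 fell, the neutrophil attractant Cxcl1, from 441.22, 996.45 and 645.51 to 414.31, 410.94 and 322.68 FPKM. Its FCA libraries differed more among themselves than the groups did, and the call (-0.79 ± 0.31) held only without FCA replicate 1. In the IL-6 family the kinase Jak2 rose from 5.43, 5.14 and 5.44 to 6.84, 7.31 and 6.68 FPKM (0.33 ± 0.07) and Jak1 by 0.18 ± 0.06, and the JAK inhibitor Socs3 fell by 0.19 ± 0.07. Jak1 kept the call only without FCA replicate 3, and Socs3 only without AT1 replicate 3 or FCA replicate 3. In all, 2 of 18 members of that family rose and 2 fell. Of 21 NF-kB subunits and regulators 1 rose and 3 fell, among them the inhibitors Nfkbib (14.77, 15.86 and 13.74 to 12.08, 12.94 and 12.48 FPKM, -0.22 ± 0.07) and Nfkbie (-0.25 ± 0.08). Both lost the call in at least 4 of the 6 fits without a library. Of 17 TNF ligands, receptors and adaptors the TWEAK receptor Tnfrsf12a fell, from 202.12, 213.24 and 201.91 to 187.45, 164.81 and 160.85 FPKM (-0.27 ± 0.07). Among 18 genes of the IL-1 family 0 rose and 0 fell. Of 16 prostaglandin genes 2 rose, Ptgfrn and Hpgd, which degrades prostaglandins (0.44 ± 0.12). Of 29 interferon response genes 2 rose, Parp9 and Ddx58, and 0 fell. With 1 library left out at a time, between 0 and 2 of the NF-kB genes fell, 2 without AT1 replicate 2 and 0 without AT1 replicate 3 or FCA replicate 1, and between 0 and 2 rose. In the IL-6 family between 1 and 3 rose and between 0 and 2 fell, with 0 without AT1 replicate 1 or FCA replicate 2. Between 1 and 4 of the prostaglandin genes rose, 4 without AT1 replicate 2 and 2 without FCA replicate 3, and between 0 and 2 of the interferon genes, 0 without AT1 replicate 3 or FCA replicate 3.

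Collagen genes moved in both directions. Of 51 records 23 were tested and 0 switched. In AT1 2 rose (8.7%) and 6 fell (26.1%), and the median over the chains was -0.05. Leaving out 1 library gave between 4 and 6 that fell, 4 without AT1 replicate 1, AT1 replicate 3 or FCA replicate 2. The 2 that rose are fibril-associated collagens. Col14a1 was at 8.48, 8.28 and 8.13 FPKM in FCA and at 10.45, 10.49 and 10.18 in AT1 (0.29 ± 0.06), with a gap between the groups wider than the range within either, and Col12a1 rose by 0.23 ± 0.09 (kept only without AT1 replicate 1). The paired chains of basement membrane collagen IV fell together. Col4a1 went from 274.94, 288.55 and 308.47 to 253.03, 256.32 and 243.67 FPKM (-0.21 ± 0.06), and Col4a2 from 217.66, 226.66 and 234.43 to 193.78, 201.09 and 193.31 (-0.21 ± 0.05). Among the chains of collagen V, Col5a3 fell from 8.89, 8.78 and 8.16 to 6.63, 6.78 and 6.55 FPKM (-0.33 ± 0.06) and Col5a1 by 0.31 ± 0.10 (lost without AT1 replicate 1, AT1 replicate 3, FCA replicate 2 or FCA replicate 3). Col6a1 fell from 57.29, 57.47 and 58.17 to 47.91, 47.29 and 52.78 FPKM (-0.22 ± 0.06). Col1a1, the main chain of collagen I, was at 916.69, 1071.96 and 900.25 FPKM in FCA and 816.55, 833.31 and 852.57 in AT1. Its fall of 0.20 ± 0.08 passed narrowly and held only without FCA replicate 3. Against the shared FCA libraries the median of the 23 chains was -0.29 in AT10, with 8 lower and 0 higher, and -0.19 in AT01, with 6 lower and 0 higher. In the direct comparisons 3 chains were higher in AT1 than in AT10 and 3 higher than in AT01, with 0 lower in both.

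The other matrix genes changed less. Of 40 fibronectin, fibrillin, laminin and matricellular genes 1 rose and 3 fell. Nid2, a basement membrane linker, went from 75.11, 74.13 and 73.3 to 65.52, 66.55 and 66.84 FPKM (-0.16 ± 0.04), and Ecm1 fell by 0.26 ± 0.08 (lost without AT1 replicate 3). Spp1, osteopontin, was the member that rose, at 1510.64, 852.34 and 1213.15 FPKM in FCA and 1658.81, 1573.86 and 2222.46 in AT1. The FCA values spread widely and the call (0.63 ± 0.24) held only without FCA replicate 1. Of 13 matrix metalloproteinases and their inhibitors 0 rose and 0 fell, the most abundant being the gelatinase Mmp2 at 1510.05 to 1605.57 FPKM in FCA and 1623.67 to 1712.29 in AT1. Among 24 ADAM and ADAMTS proteases 4 rose and 1 fell, but 1 rose without AT1 replicate 3 and 2 without FCA replicate 1 or FCA replicate 2, while between 0 and 2 fell. Both records of Adam12, a sheddase of growth factors, rose, the abundant one from 99.62, 86.7 and 106.14 to 112.67, 113.17 and 116.35 FPKM (0.23 ± 0.08, kept only without FCA replicate 3). The minor one rose from 0.98, 1.0 and 1.07 to 1.76, 1.78 and 1.81 FPKM (0.47 ± 0.07). Adamts12 rose by 0.29 ± 0.10 (lost without AT1 replicate 3, FCA replicate 1 or FCA replicate 2).

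Genes of cell adhesion and contraction fell more often than all records did. Of 30 integrin subunits and focal adhesion proteins 6 fell (20%) and 1 rose, for a median log2 fold change of -0.01 and between 5 and 7 that fell without 1 library. Zyx, the focal adhesion protein zyxin that responds to tension, was at 189.48, 199.03 and 182.37 FPKM in FCA and at 142.46, 146.29 and 143.25 in AT1 (-0.40 ± 0.05, limma adjusted p = 0.149, from 0.0948 to 0.502). Itga5, the alpha subunit of the fibronectin receptor, went from 43.92, 36.92 and 39.02 to 29.38, 30.29 and 30.7 FPKM (-0.39 ± 0.08). It was at 41.52, 39.23 and 36.74 FPKM in AT10 and at 29.69, 26.37 and 28.26 in AT01, and the difference of AT1 from AT10 was -0.37 ± 0.07, past an unadjusted p under 0.05. The laminin receptor subunit Itga3 fell from 26.17, 26.33 and 25.44 to 20.03, 21.24 and 20.07 FPKM (-0.33 ± 0.05). Fermt2, kindlin-2, which activates integrins, fell by 0.43 ± 0.09, and Tln1, talin-1, by 0.17 ± 0.05. The values of these 5 genes did not overlap between the groups.

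Of 30 actomyosin and contractile genes 7 fell (23.3%) and 1 rose (3.33%), with a median of -0.03. The count depended on the libraries, with 4 that fell without AT1 replicate 1, 5 without AT1 replicate 3 or FCA replicate 1 and 9 without AT1 replicate 2. Smtn, smoothelin, was at 36.73, 38.29 and 36.76 FPKM in FCA and at 31.47, 29.6 and 29.61 in AT1 (-0.29 ± 0.05). The myosin light chains Myl12a (-0.21 ± 0.05) and Myl9 (-0.24 ± 0.06) fell with it. Acta2, smooth muscle actin, was at 370.12, 317.43 and 263.19 FPKM in FCA and at 245.8, 223.82 and 216.09 in AT1 (-0.46 ± 0.13, lost without AT1 replicate 3). Actb went from 1556.54, 1549.95 and 1386.74 to 1195.59, 1290.94 and 1295.36 FPKM (-0.25 ± 0.07, lost without AT1 replicate 1 or FCA replicate 1). Against the same FCA libraries, the log2 fold change of Smtn was -0.29 in AT10 and -0.37 in AT01. For Acta2 it was -0.65 and -0.50, for Actb -0.27 and -0.30, for Myl12a -0.22 and -0.11, and for Myl9 -0.38 and -0.13. Smtn, Acta2 and Actb passed only in AT01, and Myl12a and Myl9 only in AT10. None of these genes differed between AT1 and either other dose at an unadjusted limma p under 0.05. Mkl1, the actin-sensing coactivator of serum response factor, fell by 0.26 ± 0.09 (kept only without FCA replicate 3) and Pdlim7 by 0.26 ± 0.08 (lost without AT1 replicate 1 or AT1 replicate 3). The member that rose was Pdlim5 (0.37 ± 0.13, lost without AT1 replicate 2, AT1 replicate 3, FCA replicate 1 or FCA replicate 2). Inf2, a formin outside the list that assembles actin filaments, fell from 49.74, 54.86 and 49.9 to 38.61, 39.44 and 37.69 FPKM (-0.41 ± 0.06). The summed FPKM of 13 pericyte and smooth muscle markers, of which 7 were tested and 5 are also in the contractile list, ran from 324.67 to 427.66 in FCA and from 268.78 to 306.37 in AT1, and the part of such cells in the result was not tested.

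Genes of mitosis and the G2/M transition rose more often than all records did. Of 77 listed records 74 were tested and 0 switched, and of these 20 rose (27%) and 2 fell (2.7%), for a median log2 fold change of 0.11. The count moved with single libraries, to 10 without AT1 replicate 1 or FCA replicate 2, 13 without AT1 replicate 3 and 23 without AT1 replicate 2. Over all records the share that rose in these fits was 3.77%, 3.45%, 3.23% and 6.89%. Hmmr, the spindle and hyaluronan binding protein RHAMM, was at 6.62, 6.94 and 7.31 FPKM in FCA and at 9.52, 9.27 and 10.44 in AT1 (0.43 ± 0.07). Mki67, the marker of proliferating cells, went from 6.74, 5.84 and 8.11 to 9.77, 9.55 and 10.05 FPKM (0.46 ± 0.12). The kinase that drives mitotic entry, Cdk1, went from 54.64, 54.73 and 53.38 to 61.93, 68.0 and 61.85 FPKM (0.23 ± 0.06). In none of the 3 genes did the groups overlap.

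The members that rose included chromosome condensation, spindle and kinetochore genes. Ncapg, a condensin subunit, rose by 0.51 ± 0.12, and Top2a, the topoisomerase that untangles sister chromatids, from 14.16, 12.24 and 14.62 to 17.67, 17.05 and 16.84 FPKM (0.31 ± 0.08). The spindle motors Kif20b (0.53 ± 0.15) and Kif11 (0.25 ± 0.07) rose, as did the kinetochore genes Ndc80 (0.39 ± 0.11), Cenpe (0.45 ± 0.14) and Cenpf (0.60 ± 0.19). Cenpe lost the call without AT1 replicate 1, AT1 replicate 3, FCA replicate 1 or FCA replicate 2, and Cenpf without AT1 replicate 1, AT1 replicate 3 or FCA replicate 2. Arhgap11a, a regulator of cell division, rose by 0.34 ± 0.10. The cyclin Ccna2 rose by 0.17 ± 0.06, kept only without FCA replicate 1. The 2 that fell were Stmn1, the microtubule destabiliser stathmin, from 30.55, 38.52 and 35.01 to 20.86, 22.04 and 17.65 FPKM (-0.75 ± 0.12), and Spc24, a kinetochore subunit, from 38.43, 42.42 and 37.07 to 18.67, 35.96 and 18.14. Spc24 in AT1 replicate 2 stood near the FCA values, and its call (-0.74 ± 0.27) held only without that library. Most members that rose were of low abundance. Of the 26 members with a mean of at least 10 FPKM 2 rose (Cdk1 and Top2a) and 2 fell. Against FCA the medians at the other doses were 0.08 in AT10, with 21 higher and 3 lower (7.75% and 4.3% of all records), and 0.09 in AT01, with 5 higher and 2 lower (2.52% and 4.05%).

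In S phase the counts were small. Of 68 genes of DNA replication and the G1/S transition 3 rose and 2 fell. The number that fell was 7 without AT1 replicate 2 and 1 without AT1 replicate 3, FCA replicate 1 or FCA replicate 2, and the number that rose was 0 without AT1 replicate 3 or FCA replicate 2 and 1 without AT1 replicate 1 or FCA replicate 3. Pcna, the sliding clamp, rose by 0.19 ± 0.07 (kept only without AT1 replicate 1), and Ccne1, cyclin E1, fell from 10.28, 9.91 and 9.96 to 7.02, 6.95 and 8.51 FPKM (-0.38 ± 0.09). Of 24 inhibitors and quiescence genes 3 rose and 1 fell, among them Ccng2, an atypical cyclin of arrested cells (0.75 ± 0.22), and Rbl2, the pocket protein p130 (0.29 ± 0.08), and 3 fell without FCA replicate 3 and 2 without FCA replicate 2. Of 79 DNA repair genes 10 rose (12.7%) and 1 fell (1.27%), with a median of 0.05 and between 5 and 10 that rose without 1 library, 5 without AT1 replicate 3 and 6 without FCA replicate 1 or FCA replicate 2. Lig4, the ligase of end joining, was at 1.02, 0.51 and 0.95 FPKM in FCA and at 3.17, 2.78 and 1.6 in AT1 (0.93 ± 0.22), and Ercc6l, a translocase of mitotic chromosomes, rose by 0.34 ± 0.09. Ercc1, a subunit of the excision nuclease, was the abundant exception and fell from 130.5, 140.73 and 137.6 to 102.01, 117.27 and 102.48 FPKM (-0.34 ± 0.07). Of 104 cilium and centrosome genes 11 rose (10.6%) and 3 fell (2.88%), among them Wdr35, a carrier of ciliary cargo (0.34 ± 0.08), and Cep170b (-0.36 ± 0.07). Between 3 and 13 rose without 1 library, 3 without FCA replicate 2 and 5 without AT1 replicate 1, AT1 replicate 3 or FCA replicate 1.

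**Figure D3:**
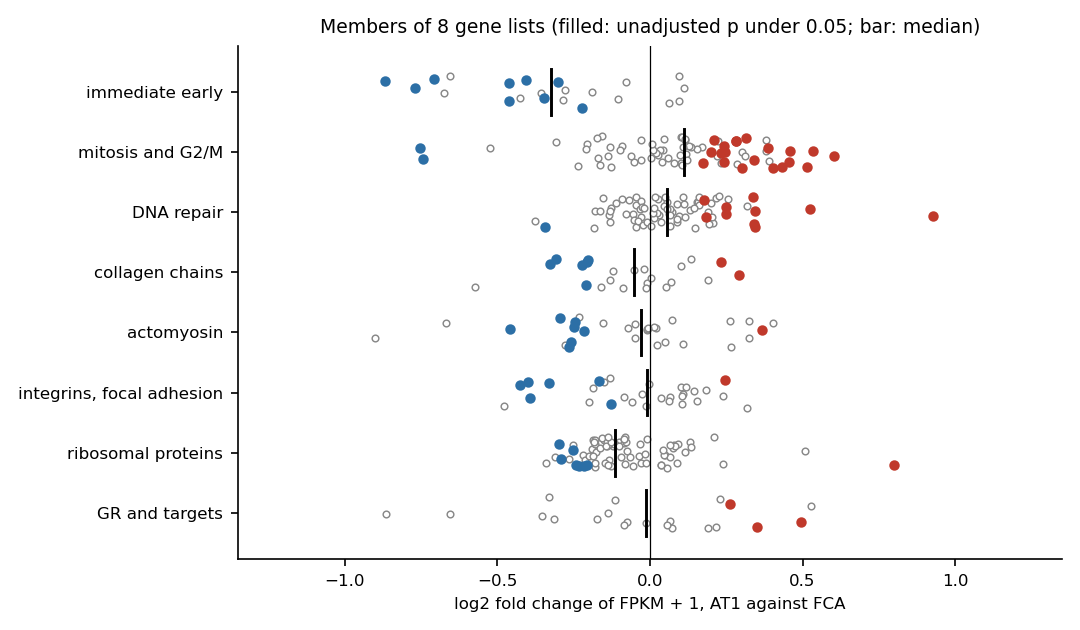
Log2 fold change of AT1 over FCA of each tested member that did not switch in 8 gene lists. Filled points passed an unadjusted limma p under 0.05, and the bar is the median of the list. The medians run from -0.33 for the immediate early genes to 0.11 for the mitosis genes, and members of the collagen and contractile lists lie on both sides of 0.

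The direction of a change went with the length of the gene. Of the 11089 records 9701 have a gene span, from first to last base, in RefSeq for build GRCr8, which may not be the build of the values. In 4 classes of equal size, the class with the shortest spans (up to 11.3 kb) had 2.39% that rose and 9.56% that fell, and in that with the longest (over 59.9 kb) 9.73% rose and 2.47% fell. The classes between gave 3.71% and 6.68% higher and 7.42% and 3.88% lower, with bounds at 25.9 kb, and the median log2 fold changes of the 4 classes were -0.06, -0.01, 0.04 and 0.08. The median span was 51.1 kb for the 546 records that rose and 14.9 kb for the 566 that fell. At the other doses, against the same FCA libraries, the medians were -0.06, -0.03, 0.01 and 0.04 in AT10 and -0.05, -0.02, 0.02 and 0.04 in AT01. The lists differ in span, with a median of 4.99 kb for the immediate early genes, 108 kb for the collagen chains and 26.7 kb for the mitosis genes. After a trend over span had been removed from the values, 0 immediate early genes rose and 8 fell (median -0.24), 1 collagen chain rose and 7 fell, and 15 mitosis genes rose and 3 fell, while the cilium genes went to 6 higher and 4 lower. The DNA repair genes went to 6 higher and 1 lower, and the ADAM and ADAMTS proteases to 2 and 0. Of lists given below, the ubiquitin ligases went to 12 higher and 9 lower. The tubulins, kinesins and dyneins went to 3 and 6, and the DEAD and DEAH box helicases to 5 and 2. Over all 9701 records 4.32% were then higher and 6.33% lower.

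The share that fell also went with abundance. In 4 classes of equal size by mean FPKM over the 12 libraries, 2.45%, 3.54%, 6.1% and 10.1% fell from the lowest class to the highest (over 16.8 FPKM), while 4.62%, 6.6%, 6.31% and 5.12% rose. Members of the lists that fell lay mostly in the highest class, so their counts there are to be read against 10.1%. In that class 8 of 12 immediate early genes, 6 of 18 integrin and focal adhesion genes, 6 of 20 contractile genes and 5 of 15 collagen chains fell. Among the core spliceosome genes in it, given below, 10 of 50 fell. For the mitosis genes, 17 of the 74 lay in that class, and 1 of them rose and 2 fell.

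**Figure D4:**
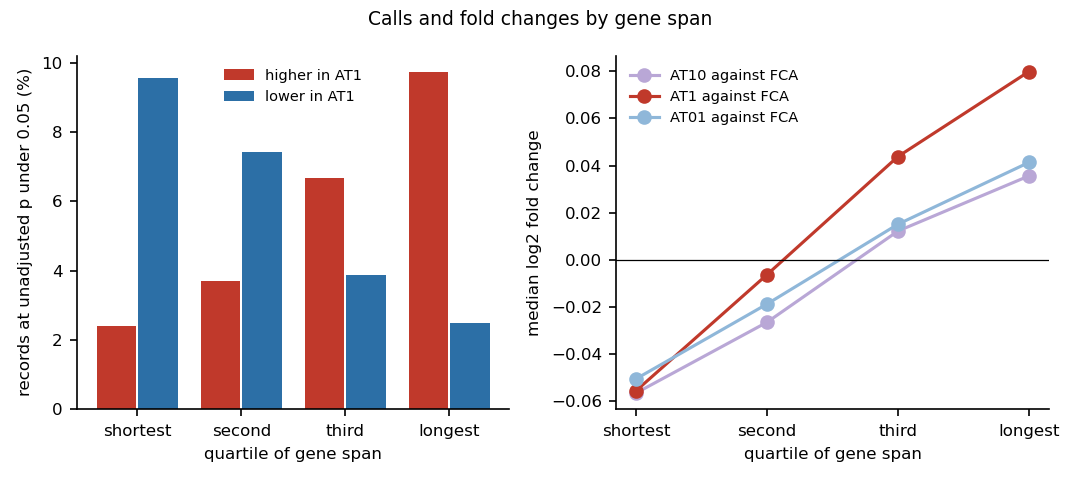
Left, percent of records that rose or fell in AT1 against FCA at an unadjusted limma p under 0.05, in 4 classes of gene span (RefSeq, GRCr8). Right, median log2 fold change over FCA in the same classes for TCDCA at 10, 1 and 0.1 µM. The share that rose climbs from 2.39% in the shortest to 9.73% in the longest class and the share that fell drops from 9.56% to 2.47%.

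Genes of RNA processing moved in both directions. Of 31 SR splicing factors 4 rose and 2 fell, with 7 that rose without FCA replicate 3 and 2 without AT1 replicate 3, FCA replicate 1 or FCA replicate 2. Srsf9 was at 14.19, 15.7 and 15.56 FPKM in FCA and at 33.01, 35.53 and 30.19 in AT1 (1.07 ± 0.08, limma adjusted p = 0.0288, from 0.0107 to 0.323). In AT10, 1 of its 3 libraries, at 29.37, stood near the AT1 values. On log2(FPKM + 1) that library lay less than 1 above the highest FCA value. This is short of the gap that defines a switch, so Srsf9 was not counted as switching. Rsrp1 rose from 11.59, 10.1 and 10.64 to 15.59, 13.43 and 15.02 FPKM (0.41 ± 0.08) and the nuclear speckle protein Son by 0.28 ± 0.09 (lost without AT1 replicate 2, AT1 replicate 3, FCA replicate 1 or FCA replicate 2). Of 103 core spliceosome genes 7 rose (6.8%) and 10 fell (9.71%), and 5 fell without FCA replicate 2 and 6 without AT1 replicate 1 or AT1 replicate 3. The number that rose went from 4 without AT1 replicate 3, FCA replicate 1 or FCA replicate 2 to 11 without FCA replicate 3. Sf3a2, a subunit of the U2 particle, went from 28.1, 31.22 and 26.85 to 18.09, 18.8 and 17.52 FPKM (-0.63 ± 0.07, limma adjusted p = 0.111), and Sf3b4 of the same particle fell by 0.29 ± 0.06. The splicing kinase Prpf4b rose by 0.55 ± 0.10. Of 45 DEAD and DEAH box helicases 6 rose (13.3%) and 1 fell (2.22%), with between 1 and 8 that rose without 1 library, 1 without AT1 replicate 3 or FCA replicate 2 and 3 without AT1 replicate 1 or FCA replicate 1. Ddx17 rose from 4.92, 4.45 and 4.98 to 6.48, 6.34 and 6.63 FPKM (0.37 ± 0.07), and Ddx42 by 0.56 ± 0.18. Ddx6, the helicase of P-bodies, fell by 0.43 ± 0.14. Ddx42 lost the call without AT1 replicate 2, AT1 replicate 3, FCA replicate 2 or FCA replicate 3, and Ddx6 without AT1 replicate 2, AT1 replicate 3, FCA replicate 1 or FCA replicate 2. In mRNA decay 4 of 72 genes rose and 10 fell (13.9%), and 6 fell without AT1 replicate 3 or FCA replicate 1. The number that rose lay between 1, without FCA replicate 2, and 6, without AT1 replicate 2. The 10 that fell include Btg2 and Zfp36 of the immediate early list, Skiv2l of the exosome-associated SKI complex (-0.21 ± 0.05), the nonsense decay helicase Upf1 (-0.20 ± 0.05) and Lsm4, which the spliceosome also uses (-0.27 ± 0.07).

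In genes of protein synthesis, energy and nucleotides, more members fell than rose, as was so of abundant and of short genes in general. Of 77 cytosolic ribosomal protein records 1 rose (1.3%) and 7 fell (9.09%), with a median of -0.12. Of the 77, 19 lay wholly below FCA, against 10.2% of all records, and this was not counted by class of span or FPKM. The number that fell went from 4 without AT1 replicate 1 to 15 without AT1 replicate 2. Rpl10a was at 358.63, 361.21 and 336.71 FPKM in FCA and at 298.02, 304.72 and 284.49 in AT1 (-0.25 ± 0.06), Rpl28 fell by 0.29 ± 0.07 and Rps16 by 0.30 ± 0.09. Rpl29 was the exception, at 127.02, 99.03 and 104.47 FPKM in FCA and 151.54, 152.84 and 302.73 in AT1 (0.80 ± 0.30, lost without any of the FCA replicates). Of the 77 records 74 lie in the class of shortest spans, and with the trend over span removed 6 rose and 4 fell (median -0.02). All 7 that fell are among these 74, and their share of 9.09% is close to the 9.56% of that class. It is also close to the 10.1% that fell in the class of highest FPKM, which holds 74 of the 77 records as well. Of 64 subunits and assembly factors of respiratory complexes II to V 2 rose and 7 fell (10.9%), and 4 fell without FCA replicate 1. In the class of highest FPKM 4 of 42 members fell, and in that of the shortest spans 4 of 37. Atp5sl, which is named for ATP synthase but known for the assembly of complex I, went from 12.25, 13.11 and 11.96 to 5.58, 6.97 and 5.22 FPKM (-0.96 ± 0.11, limma adjusted p = 0.111), and was at 5.94, 11.98 and 6.34 FPKM in AT10. The copper chaperone Cox17 (-0.45 ± 0.11), the haem farnesyltransferase Cox10 (-0.59 ± 0.16) and the assembly factor Atpaf2 (-0.34 ± 0.09) fell as well. Of 41 genes of nucleotide synthesis 0 rose and 5 fell (12.2%), among them Cad, which starts pyrimidine synthesis (11.42, 11.36 and 11.63 to 9.19, 9.98 and 9.75 FPKM, -0.23 ± 0.06), and Impdh1, of guanine nucleotide synthesis (-0.21 ± 0.05), and 2 of the list fell without AT1 replicate 3 and 3 without AT1 replicate 1, FCA replicate 1 or FCA replicate 2.

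Among 68 heat shock proteins and co-chaperones 3 rose and 6 fell (8.82%). The balance turned with single libraries, with 8 that rose and 5 that fell without FCA replicate 3 against 1 and 3 without FCA replicate 2. In the class of highest FPKM 3 of 29 fell. Bag3, the co-chaperone of selective autophagy, was at 57.24, 63.58 and 62.45 FPKM in FCA and at 42.71, 43.22 and 41.95 in AT1 (-0.51 ± 0.06, limma adjusted p = 0.111, from 0.0778 to 0.502). The gap between the groups was far wider than the spread of the AT1 values. Bag6 went from 62.55, 62.11 and 59.81 to 44.03, 48.47 and 46.99 FPKM (-0.40 ± 0.06), and Dnajb4 fell by 0.34 ± 0.08. Dnajc10, a reductase of the endoplasmic reticulum, rose from 39.36, 36.51 and 42.48 to 53.21, 47.92 and 54.35 FPKM (0.39 ± 0.08). Of 42 genes of the unfolded protein response 0 rose and 2 fell (4.76%), Creld2 and Herpud1. Without FCA replicate 3, 5 rose and 1 fell, 1 rose and 0 fell without AT1 replicate 1 or FCA replicate 1, and with the replicate number as a block 4 rose and 0 fell. Of 186 ubiquitin ligases 18 rose (9.68%) and 9 fell (4.84%), with 9 that rose without AT1 replicate 3 or FCA replicate 2 and 4 that fell without AT1 replicate 2. The class of longest spans, where 9.73% of all records rose, holds 61 of the 186. With the trend over span removed 12 ligases rose and 9 fell. Among the ligases were Rnf13 (0.46 ± 0.10) and Rnf130 (0.27 ± 0.07) upward, and Rnf19b (-0.29 ± 0.05) and Rnf10 (-0.31 ± 0.07) downward. Of 82 tubulins, kinesins and dyneins 9 rose and 6 fell, but 3 rose without FCA replicate 2 and 5 without AT1 replicate 3 or FCA replicate 1, and 3 fell without AT1 replicate 1 or FCA replicate 1. Among them were Map7d1, which binds microtubules, (-0.33 ± 0.07), and Tubb6 (-0.31 ± 0.09). Of 186 zinc finger genes 6 rose and 6 fell (3.23% each), but 14 rose without AT1 replicate 2 and 12 without FCA replicate 3, and 3 fell without FCA replicate 2.

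Of the 7 non-switching records under an adjusted p of 0.05, Egr1 and Srsf9 are given above. Rhoj, a CDC42-like GTPase, was at 8.34, 8.45 and 8.7 FPKM in FCA and at 16.72, 15.11 and 15.79 in AT1 (0.83 ± 0.06, limma adjusted p = 0.0288, from 0.0201 to 0.601). At the other doses it varied within the group, with 15.62, 3.21 and 14.18 FPKM in AT10 and 13.21, 6.59 and 3.09 in AT01. Prorsd1, related to a prolyl-tRNA editing protein, was at 3.43, 3.35 and 3.76 FPKM in FCA and at 0.02, 0.09 and 0.0 in AT1. It was present at the other doses, with 3.75, 3.29 and 4.53 FPKM in AT10 and 4.47, 4.58 and 4.15 in AT01. Its log2 fold change on log2(FPKM + 1) was -2.12 ± 0.08 against FCA (limma adjusted p = 0.00308, from 1.61e-05 to 0.139), -2.22 ± 0.12 against AT10 (adjusted p = 0.00298) and -2.38 ± 0.09 against AT01 (adjusted p = 0.00128). Over all non-switching records 0.144% passed the adjusted p between AT1 and AT10 and 0.0812% between AT1 and AT01. Gnpda1, a glucosamine-6-phosphate deaminase, fell from 26.33, 24.16 and 24.87 to 8.28, 7.3 and 9.75 FPKM (-1.48 ± 0.11, limma adjusted p = 0.0288, from 0.000882 to 0.257) and was equally low in AT10 and AT01, with means of 7.98 and 8.43. Tmem41a (-1.28 ± 0.11, limma adjusted p = 0.0488, from 0.0279 to 0.394) and Lrrc75b (-2.11 ± 0.19, limma adjusted p = 0.0488, from 0.00807 to 0.483) fell, but their values varied within the other groups. Lrrc75b had 14.37, 13.34 and 14.45 FPKM in FCA and 1.94, 2.09 and 3.66 in AT1, and in AT10 it had 13.99, 0.52 and 12.2. It was not counted as switching because the range of its low values was wider than the gap.

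Among records past the study's criterion without that correction, Nras, a RAS GTPase, rose from 6.89, 5.43 and 5.75 to 14.23, 13.23 and 11.88 FPKM (1.01 ± 0.11, limma adjusted p = 0.101). S100b, a calcium binding protein, rose from 15.92, 32.93 and 12.65 to 55.03, 58.87 and 43.4 FPKM (1.42 ± 0.35). Tor4a, a torsin ATPase, fell from 11.89, 13.05 and 9.66 to 2.03, 3.6 and 0.96 FPKM (-2.05 ± 0.32), and Wtip, a LIM protein of cell junctions, from 10.14, 9.76 and 7.0 to 3.25, 3.86 and 3.19 (-1.16 ± 0.15). Phlda3, a p53-induced inhibitor of AKT, was at 124.02, 132.03 and 127.64 FPKM in FCA and 56.53, 56.56 and 9.55 in AT1 (-1.98 ± 0.69, lost without any of the FCA replicates). A record of the mitochondrial gene Mt-cyb spread over several orders of magnitude, with 0.0, 5.43 and 0.0 FPKM in FCA and 7.96, 148.43 and 2543.4 in AT1 (6.34 ± 2.12, lost without AT1 replicate 2, FCA replicate 1 or FCA replicate 3). Smaller shifts of abundant genes were Hebp1, a haem binding protein (-0.64 ± 0.07, limma adjusted p = 0.0925), Cnppd1 (0.76 ± 0.10) and Mrpl27, a mitochondrial ribosomal protein (0.74 ± 0.11).

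A further 29 records past the criterion, 14 higher and 15 lower, were among the 522 that switched, and 4 of these had an adjusted p under 0.05. In 3 of these, Cycs, Cdc42se1 and Chmp2b, the values were tight within FCA and AT1. Cycs had 4.88, 4.96 and 5.91 FPKM in FCA and is listed at 0 in all AT1 libraries. Cdc42se1 had 7.94, 8.13 and 7.55 and then 19.28, 19.76 and 18.49, and Chmp2b 18.14, 16.44 and 17.18 and then 7.23, 6.63 and 6.87. Their switches lie within the other 2 groups, and they were left out of the gene groups above.

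Most of the records that rose past the criterion moved with the 5.8S ribosomal RNA record. Of the 29 non-switching records that rose past it, 19 were among 20 records whose log2(FPKM + 1) followed that of the 5.8S ribosomal RNA record Rn5-8s over the 12 libraries with a Pearson's r of at least 0.9. These records were picked by their values, so no test is given. Of the 20, 3 are named for 5.8S ribosomal RNA, of 5 such records tested, and 1 is 7SK, a small nuclear RNA, while the others are unnamed or carry names that do not say ribosomal RNA. Of the 14 that fell past the criterion 0 were in this set. Rn5-8s was at 51.69, 58.81 and 24.19 FPKM in FCA and at 180.02, 232.55 and 134.78 in AT1. In AT10 it was at 29.94, 22.34 and 228.72 FPKM and in AT01 at 579.23, 340.7 and 261.49, so that 1 AT10 library stood with AT1 and the AT01 libraries stood above all others. The median log2 fold change of the 20 records was 1.38 in AT1, 0.25 in AT10 and 2.19 in AT01. The records held 0.133 to 0.279% of a library's FPKM in FCA and 0.551 to 0.910% in AT1. The libraries were made from poly(A) RNA.

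**Figure D5:**
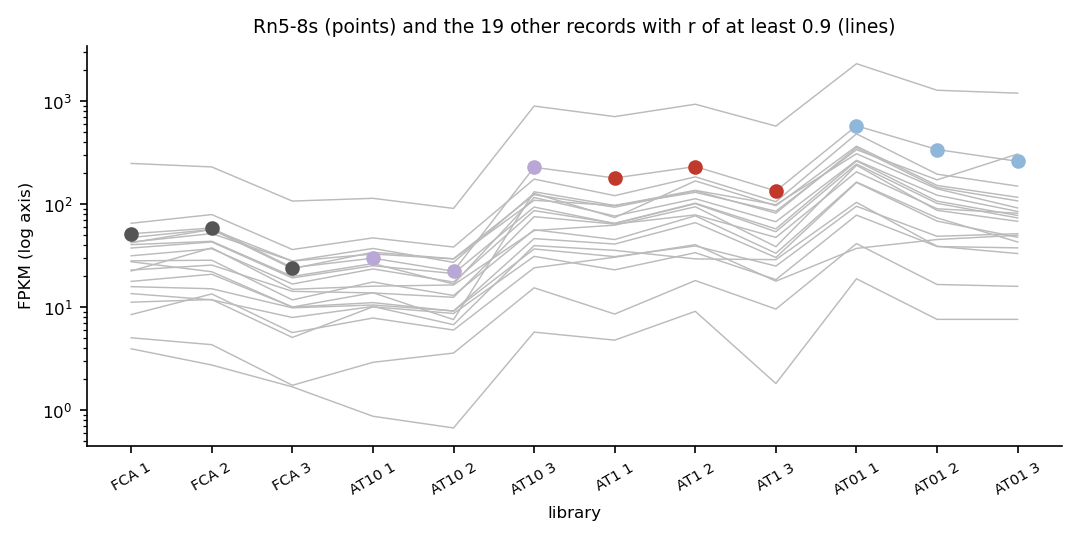
FPKM on a log axis of the Rn5-8s record (points) and of the 19 other records that follow it (lines) in each of the 12 libraries by group. The AT1 libraries (134.78 to 232.55 FPKM for Rn5-8s) lie above FCA (24.19 to 58.81), AT01 above both, and AT10 replicate 3 apart from the other AT10 libraries.

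Markers of synovial fibroblasts themselves shifted in part. Of 22 records in the list of identity markers 3 rose (13.6%) and 2 fell (9.09%). Col1a1, Vim, Pdgfrb and Cd55 have 2 records each among them, and 1 record is Uqcc3, which is not a fibroblast marker. Without FCA replicate 3, 5 rose. In 4 of the 6 fits with a library left out 1 fell, those without AT1 replicate 1, AT1 replicate 3, FCA replicate 1 or FCA replicate 2. Lum, the proteoglycan lumican, was at 594.72, 603.35 and 625.06 FPKM in FCA and at 701.67, 721.71 and 781.93 in AT1 (0.27 ± 0.06). The adhesion molecule Vcam1 rose from 3.64, 2.55 and 3.07 to 5.7, 4.24 and 5.07 FPKM (0.56 ± 0.14), and the protease Fap, which marks activated fibroblasts, from 12.27, 10.99 and 12.3 to 16.37, 13.7 and 15.35 (0.33 ± 0.09). Thy1, the marker of sublining fibroblasts, fell from 153.58, 157.89 and 151.7 to 134.82, 129.51 and 112.46 FPKM (-0.30 ± 0.08). In these 4 genes the groups did not overlap. The other that fell was Col1a1, given above. Among markers of other cells, 3 sums did not overlap between the groups. The pericyte sum was lower, as given above. For scale, the smooth muscle gene Acta2 lay between 216.09 and 370.12 FPKM in the 6 libraries, and its call was lost without AT1 replicate 3. The 16 endothelial markers, of which 3 were tested, summed to 32.78 to 41.97 FPKM in FCA and to 29.32 to 30.52 in AT1, wholly lower. Among them the defining endothelial genes Cdh5 and Vwf were at most 0.01 and 0.04 FPKM in the 6 libraries. The 19 chondrocyte and osteoblast markers summed to 914.78 to 1558.34 FPKM in FCA and to 1621.43 to 2268.06 in AT1, wholly higher. Most of this sum was Spp1 in each library, whose values are given above and whose call held only without FCA replicate 1. The part of such cells in the results was not tested. The 16 macrophage markers overlapped, summing to 11.27 to 27.76 FPKM in FCA and 11.51 to 23.54 in AT1.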

How the data were processed

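Poly(A) RNA of 12 libraries (4 groups of 3) was sequenced by the authors, whose notes name cutadapt, HISAT2, StringTie and Ballgown. The deposited FPKM, to 2 decimals, are the authors' values per gene record, with no scaling between libraries stated. The genome build is not given in the sources used here. The paper lists the number of reads of each library, but no counts per record were among the files used, so counting error is unknown. Groups came from the labels.

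From these, records averaging 1 FPKM or more were fitted on log2(FPKM + 1), separately for each pair of groups, by limma 3.58.1 (eBayes, trend over expression) under R 4.3.3. Fold changes are on that scale and understate those of low records. A record switched where a gap of 1 or more divided its 12 sorted values into 2 levels of at least 2 libraries, each of smaller range than the gap, and a group had libraries in both. Where a name has several records, the text gives the identifier or the abundant record. Other steps used Python 3.11.15, NumPy 2.4.6, SciPy 1.17.1, pandas 2.3.3 and Matplotlib 3.10.9. The fit was tested on simulated data.

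The comparison, lists and members were chosen with earlier results of these data known, so the lists are no independent evidence. Genes were named by rule: all at an adjusted p under 0.05, named non-switching genes past the criterion without overlap, the 15 of smallest p in each direction of at least 10 FPKM, up to 4 per list, and a few of the study, as far as each adds to the text. Further list members, such as Ier2, Myc, Maff, Jun, Cyr61, Arhgap11a, Cdk1, Top2a, Acta2, Col1a1 and Upf1, were chosen after their values were seen. The alternatives numbered 19. The authors' other measurements (q-PCR, blots) were not used. A gene list is not reported here.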

Additional observations from a re-analysis of the deposited data

Results flagged for a closer look

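The level of 4 named records in AT1 differed from that at another dose by a test of the difference itself (limma adjusted p under 0.05 over all records). Prorsd1 was lower in AT1 than in AT10 by a log2 difference of -2.22 and lower than in AT01 by -2.38, with all 3 AT1 libraries below all 3 of either dose. Egr1 was lower in AT1 than in AT10 by -0.88 and Btg2 by -0.76, again without overlap. Cyr61 was higher in AT1 than in AT01 by 0.93, also without overlap. These comparisons share the AT1 libraries.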

How the results depend on the processing

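Over all 11611 records, 11 had a limma adjusted p under 0.05, 43 were higher and 29 lower by the criterion, 646 were higher and 632 lower at an unadjusted p under 0.05, and 2309 did not overlap. The count of 11 became 3 with 1 fit over all 12 libraries, 1 with a Ballgown-style F test, 6 at a mean of at least 10 FPKM, 4 when switching records were removed before the fit, and 7 when those switching by 1 library were removed too (the last, like the gene length trend, was chosen after seeing the data). The 43 became 17 with the F test and 26 with the length trend removed, and the 29 became 5 at 10 FPKM and 15 or 16 without switching records. At 10 FPKM, where fewer records are tested, 230 were higher, 389 lower and 1053 without overlap. With 1 library left out, the ranges were 9 to 33 for the adjusted p, 37 to 48 and 24 to 43 for the criterion, 369 to 798 and 422 to 625 for the unadjusted p, and 3199 to 3976 without overlap. Median-of-ratios scaling gave 540 higher and 788 lower. The cause of these shifts was not tested. Libraries with the same replicate number did not deviate together (correlations of -0.0752, 0.0121 and 0.01), so they share only a number; with the replicate block limma called 0 records at an adjusted p under 0.05, 595 higher and 530 lower at an unadjusted p, and 39 and 29 by the criterion, and 125 of the named records kept their call. Of the named records with a call, 49 kept it under all 19 alternatives, a further 27 kept it under each of the 14 to 18 alternatives in which they were tested, and 0 turned direction. The switching Nr3c1 record had a log2 fold change of 0.12 that ranged from -0.39 to 0.72 with 1 library left out and turned below 0 without AT1 replicate 2, FCA replicate 1 or FCA replicate 3, and that of Cyr61, 0.06, ranged from -0.22 to 0.21 and turned below 0 without FCA replicate 2. Without counts per record, the limit that depth sets on low records is unknown.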
